A study of Rattus norvegicus with 12 samples.

Results

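The genes of the mitochondrial ribosomal proteins were taken as all probe sets whose only gene symbol in the array's annotation begins with Mrpl or Mrps followed by a number. On an Affymetrix array, short probes that target one transcript are read together as a probe set. The rule found 97 probe sets among the 31042 of the array, of which 20826 carried 1 gene symbol. They stood for 73 of the 14217 genes named on the array, 46 named for the large subunit (Mrpl) and 27 named for the small subunit (Mrps). Of the 97 probe sets, 91 were bright enough to be tested, and each of the 73 genes had at least 1 of them. The 6 that were too dim were further probe sets of Mrps26, Mrps24, Mrps18c, Mrpl37, Mrps27 and Mrps22. A gene is described by its brightest tested probe set unless another is named.

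RNA came from the left ventricle of female Sprague-Dawley rats aged 16 months. The EX rats could exercise voluntarily throughout life, the PA rats spent 1 h at a time being active in a large box 2 times a week, and the SED rats had no more than a standard cage. Each group has 4 arrays, numbered here 1 to 4 within the group. Strain, sex, age, supplier and tissue were the same in all 3 groups. The design text speaks of 12 animals per group and pools of 4 animals per array, which would make 3 arrays rather than the 4 listed. Each array is therefore a pool, how the pools were made is not settled, and the p-values measure the spread between pooled arrays. All values are log2 intensities as deposited, so a difference of 1 is a factor of 2, and all differences are on that scale.

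The mitochondrial ribosome translates the few messengers of the mitochondrial genome, which encode core subunits of the respiratory chain and of ATP synthase. Its ribosomal RNAs are made in the mitochondrion, but every one of its proteins is encoded in the nucleus, made in the cytosol and imported. Some of these proteins descend from bacterial ribosomal proteins, and others were gained in mitochondria. Heart muscle is rich in mitochondria, and inherited defects of several of these genes in humans, among them MRPL3, MRPL44 and MRPS22, cause cardiomyopathy.

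Many promoters of these genes share short motifs of the factors known for nuclear genes of mitochondrial proteins. RefSeq promoters of the rat assembly GRCr8 were matched by gene identifier for 59 of the 73 genes, each from 250 bases before to 50 after the start. The letters CCGGAAG, a core of the sites of ETS factors such as GABPA, stood on either strand in 33.9% of the 59 promoters, against 9.63% of 27457 genes in the table. The NRF1 half-site GCGCANG stood in 32.2% against 17.3%, and AAGATGG, a core of YY1 sites, in 25.4% against 7.77%. At least one of the 3 was found in 67.8% of the 59 promoters and in 29.7% of all. AAGGTCA, the half-site of the estrogen-related receptors, stood in 5.08% against 4.83%, and the TATA letters TATAAA in 13.6% against 15.3%. A match of letters is a description of the sequence and not a site in use.

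Mrps18b and Mrps26 had the smallest limma p-values in EX against PA, and Mrpl22 had the smallest in PA against SED. The EX and SED arrays of Mrps5 did not overlap. These 4 genes were picked for these values, and none of them passed an adjusted limma p of 0.05. Their promoters are given below. Each is given from 150 bases before to 50 bases after the start, 200 bases 5′ to 3′ on the plus strand of GRCr8, with the letters of the ETS, NRF1 and YY1 motifs in capitals. The places are chr20:2842856-2843055 for Mrps18b, chr3:138222174-138222373 for Mrps26, chr3:135274183-135274382 for Mrps5 and chr10:42845760-42845959 for Mrpl22.
Mrps18b: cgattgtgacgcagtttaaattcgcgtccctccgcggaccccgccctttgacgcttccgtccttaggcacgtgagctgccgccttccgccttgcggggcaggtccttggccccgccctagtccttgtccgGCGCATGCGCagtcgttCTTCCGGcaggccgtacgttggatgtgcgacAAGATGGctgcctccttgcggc
Mrps26: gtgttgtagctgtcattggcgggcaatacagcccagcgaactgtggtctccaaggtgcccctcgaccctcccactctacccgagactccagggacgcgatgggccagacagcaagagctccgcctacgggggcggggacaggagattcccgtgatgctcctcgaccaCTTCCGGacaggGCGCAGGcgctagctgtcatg
Mrps5: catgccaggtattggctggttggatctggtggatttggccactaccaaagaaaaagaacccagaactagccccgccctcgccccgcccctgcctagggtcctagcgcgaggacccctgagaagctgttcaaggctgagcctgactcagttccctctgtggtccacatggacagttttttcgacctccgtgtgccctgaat
Mrpl22: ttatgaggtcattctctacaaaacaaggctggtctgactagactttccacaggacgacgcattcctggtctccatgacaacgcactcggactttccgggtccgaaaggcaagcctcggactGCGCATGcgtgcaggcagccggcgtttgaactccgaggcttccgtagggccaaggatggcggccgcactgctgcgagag
The Mrps18b window holds all 3 motifs, with an NRF1 match on each strand of one palindrome. Mrps26 holds an ETS and an NRF1 match, both after the start. Mrpl22 holds 1 NRF1 match, and none of the 3 sets of letters is in the Mrps5 window.

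As heart muscle, the tissue label fits the arrays. Of 9 cardiomyocyte genes 8 were tested, and their levels over the arrays averaged 12.41 to 13.15, near the top of the scale. Their mean per array stayed within -0.04 to 0.06 of the mean over all 12 arrays. SED 1 stood apart from the other 11 arrays, with a mean correlation of 0.964 with the rest against 0.987 to 0.989, an interquartile range of 3.58 against 3.73 to 4.04, and a gap between the 3′ and 5′ control probe sets of Gapdh of 1.56 against 0.96 to 1.35. Differences from SED are therefore given with and without SED 1. Markers of other cells moved with single arrays: the mean of the 4 blood genes lay 1.12 below its 12-array mean in SED 1 and 1.31 above it in SED 3, and the mean of the 11 leukocyte genes lay 0.68 above it in SED 3 and 0.22 above it in PA 1. By group, the leukocyte mean ran from -0.23 to -0.02 in EX, -0.20 to 0.22 in PA and -0.18 to 0.68 in SED. The mean of 6 atrial genes ran from -0.64 to 0.89 in EX, -0.13 to 0.16 in PA and -0.35 to 0.18 in SED. At an unadjusted limma p under 0.05, 2 of these 6 were higher in EX than in SED, and 2 in PA. Of all tested genes, 6.97% and 7.33% were. The part of atrial tissue in the differences was not tested. In RNA from whole tissue, fewer cells of a type and less RNA per cell cannot be told apart.

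The mitochondrial ribosomal protein genes moved together on 2 arrays. The mean deviation of the 73 genes from their 12-array means was -0.29 in SED 1 and 0.15 in PA 1, and it lay between -0.07 and 0.08 on the other arrays. By group, the mean was -0.01 ± 0.04 in EX, 0.06 ± 0.07 in PA and -0.05 ± 0.17 in SED (SD, n = 4 each), and 0.03 ± 0.08 in SED without SED 1 (SD, n = 3). The spread between SED arrays was thus larger than any distance between the group means.

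SED 1 held the lowest of the 12 values, ties included, in 40 of the 73 genes (54.8%), against 34.4% of all 10244 tested genes. PA 1 held the highest in 23 genes (31.5%), against 9.21% of all tested genes. Related families had such shares too. SED 1 was lowest in 67.6% of complex I subunits and 57.1% of cytosolic ribosomal proteins, and PA 1 highest in 58.8% and 21.4%. Both subunits took part, since the large subunit genes stood at -0.31 in SED 1 and 0.18 in PA 1, and the small subunit genes at -0.24 and 0.11. Complex I subunits, 34 genes of the respiratory chain, were displaced on the same arrays, by -0.23 in SED 1 and 0.14 in PA 1. The 42 cytosolic ribosomal protein genes were displaced by -0.12 and 0.07, and all tested genes by -0.12 and 0.03. Of the mitochondrial gene lists described further below, translation factors stood at -0.38 in SED 1 and 0.14 in PA 1. RNA synthesis and processing genes stood at -0.49 and 0.15, and assembly and rRNA modification genes at -0.14 and 0.06. The aminoacyl-tRNA synthetases stood at 0.02 and 0.07, and the ribosomal subunits with other names at -0.05 and 0.06. The part of the RNA quality of SED 1 in its low values was not tested.

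**Figure D1:**
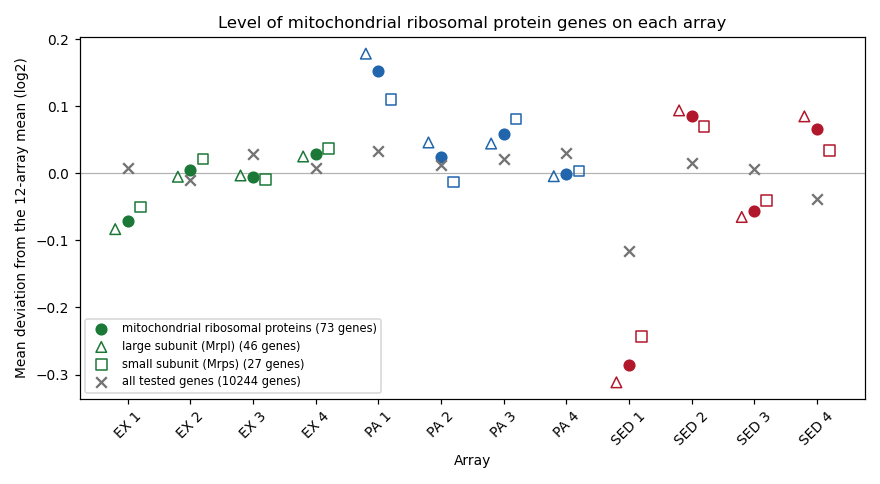
The vertical axis gives the mean deviation of a gene list from its 12-array mean (log2) on each array, with EX, PA and SED arrays from left to right, filled circles for all 73 mitochondrial ribosomal protein genes, triangles and squares for the 2 subunits and crosses for all 10244 tested genes. SED 1 is the lowest array at -0.29 and PA 1 the highest at 0.15 for the 73 genes.

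The depth of the drop in SED 1 differed widely between members. Set against the mean of SED 2, SED 3 and SED 4, SED 1 was lower in 56 of the 73 genes with a median gap of -0.30, while over all tested genes it was lower in 55.1% with a median gap of -0.06. In 23 members (31.5%) it was lower by more than 0.5, against 22.0% of all tested genes. Some members were far down, and those outside the rule for named genes, Mrpl1, Mrpl54, Mrps14, Mrps6 and Mrps9, were chosen after their values were seen. Mrpl43 read 8.37 in SED 1 and 9.63 to 9.89 in the other SED arrays, and Mrpl37 read 8.52 against 9.53 to 10.14. Mrpl1, the counterpart of a mobile stalk protein of the bacterial large subunit, read 9.16 in SED 1 against 10.03 to 10.73. Mrpl51, Mrpl12 and Mrpl54 differed from the other SED arrays by 0.01, -0.03 and 0.01, and Mrps6, Mrps9, Mrps35 and Mrpl38 were higher in SED 1 by 0.27, 0.23, 0.21 and 0.20. Mrps14 was furthest above, at 10.72 in SED 1 against 9.94 to 10.22 in the other SED arrays, a gap of 0.64. Its dimmer probe set read 8.63 in SED 1 against 9.11 to 9.47. Probe sets also differed within Mrps9, Mrpl12 and Mrpl51. The dimmer one of Mrps9 read 8.76 in SED 1 against 9.04 to 9.3 in the other SED arrays. For the dimmer one of Mrpl12 it was 5.54 against 6.48 to 6.98. From brightest to dimmest, the other probe sets of Mrpl51 read 12.58, 11.23 and 6.56 in SED 1. On these the other SED arrays read 12.53 to 12.55, 11.42 to 11.58 and 7.94 to 8.07.

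EX was compared with SED to ask how lifelong access to exercise bears on the ventricle. For these genes the comparison gave means on both sides of 0: 40 were higher in EX, 32 lower and 1 equal, with a median difference of 0.01, beside 56.9% higher, 42.6% lower and a median of 0.03 over all tested genes. The limma fit placed 0 of the 91 member probe sets past an adjusted p of 0.05, as it did 0% of all 18626 tested. The moderated F test over the 3 groups called 0 members too, with 0 of the 73 genes at an unadjusted p under 0.05 against 10.8% of all tested genes, and its smallest adjusted p by limma was 0.382. Another scaling turned the balance: after quantile normalization 27 members were higher in EX and 46 lower, with 45.5% of all tested genes higher. At an unadjusted p under 0.05, 1 member was higher in EX (Mrps5) and 1 lower (Mrpl38), while 6.97% of all tested genes were higher and 5.95% lower.

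Mrps5, the counterpart of a bacterial protein that bears on the accuracy of decoding, read 7.51, 7.63, 7.64 and 7.75 in EX, 7.58, 7.15, 7.85 and 7.36 in PA, and 6.71, 7.37, 7.38 and 7.45 in SED. Every EX array was above every SED array, which held for 1 of the 73 genes (1.37% of them), beside 3.45% of all tested genes. The reverse held for 0 members, beside 3.31% of all tested genes. Its EX mean exceeded its SED mean by 0.41 ± 0.18 (SE, 95% interval 0.01 to 0.80), with an adjusted limma p of 0.306. Without SED 1 the difference was 0.23 ± 0.14 and the adjusted limma p 0.514, and the arrays still did not overlap.

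Mrpl38, a protein of the central protuberance of the large subunit with no bacterial counterpart, read 6.66, 6.51, 6.52 and 6.35 in EX, 6.63, 6.78, 6.63 and 6.38 in PA, and 6.97, 6.79, 6.93 and 6.60 in SED. The lowest SED array lay within the range of EX. The difference EX minus SED was -0.31 ± 0.12 (SE, 95% interval -0.57 to -0.06), with an adjusted limma p of 0.231, the smallest among the members. Without SED 1 it was -0.26 ± 0.12, with an adjusted limma p of 0.352.

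Of the remaining 6 genes named for their p-values in this comparison, 5 had higher means in EX and 1 a lower one. Mrpl18, the counterpart of a bacterial protein of the central protuberance, averaged 9.43 ± 0.15 in EX against 9.18 ± 0.18 in SED (SD, n = 4 each), which differ by 0.25 ± 0.12 (SE), and by 0.21 without SED 1. Mrpl22, whose bacterial counterpart lines the exit tunnel for the growing chain, averaged 9.23 ± 0.04 in EX against 8.94 ± 0.31 in SED, which differ by 0.29 ± 0.14 (SE), and by 0.15 without SED 1. Mrpl47, Mrps26 and Mrpl10, the last of these a part of the stalk base that receives translation factors, had higher EX means by 0.15, 0.28 and 0.25, and for Mrps35 the difference was -0.19. Without SED 1 the differences were 0.105 for Mrpl47, 0.14 for Mrps26, 0.07 for Mrpl10 and -0.13 for Mrps35. The adjusted limma p-values of these 6 genes with all arrays lay between 0.344 and 0.471, and their groups overlapped.

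The balance of EX against SED turned when SED 1 was left out. Then 21 of the 73 genes were higher in EX and 52 lower, with a median of -0.04, while all tested genes had 53.5% higher, 46.4% lower and a median of 0.01. All 20 genes that changed side went from higher to lower in EX, among them Mrpl43 (0.31 with and -0.05 without SED 1) and Mrps2 (0.24 and -0.02), and 20 stayed higher. Without SED 1, limma again called 0 member probe sets, against 2 of 18626 (0.0107%) in all, and 0 member genes were higher and 3 lower at an unadjusted p under 0.05, beside 6.21% and 6.02% of all tested genes.

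These 3 were Mrps34, Mrpl2 and Mrpl38, of which Mrps34 and Mrpl2 are named after their values were seen. Mrps34, a mitochondria-specific protein of the small subunit, read 7.57, 7.49, 7.58 and 7.64 in EX, 7.74, 7.67, 7.70 and 7.82 in PA, and 7.23, 7.94, 7.70 and 7.89 in SED. SED 1 was the lowest of all 12 arrays, and the other SED arrays were above every EX array. The difference EX minus SED was -0.12 ± 0.14 (SE, adjusted limma p 0.703) with SED 1 and -0.27 ± 0.08 (SE, adjusted limma p 0.195) without it. For Mrpl2, the counterpart of a bacterial protein beside the peptidyl transferase centre, the differences were -0.14 ± 0.20 with SED 1 and -0.35 ± 0.14 without it. Without SED 1 the arrays of EX and SED were apart in 1 member that was higher (Mrps5) and 2 that were lower (Mrps18b and Mrps34), beside 5.74% and 4.89% of all tested genes.

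**Figure D2:**
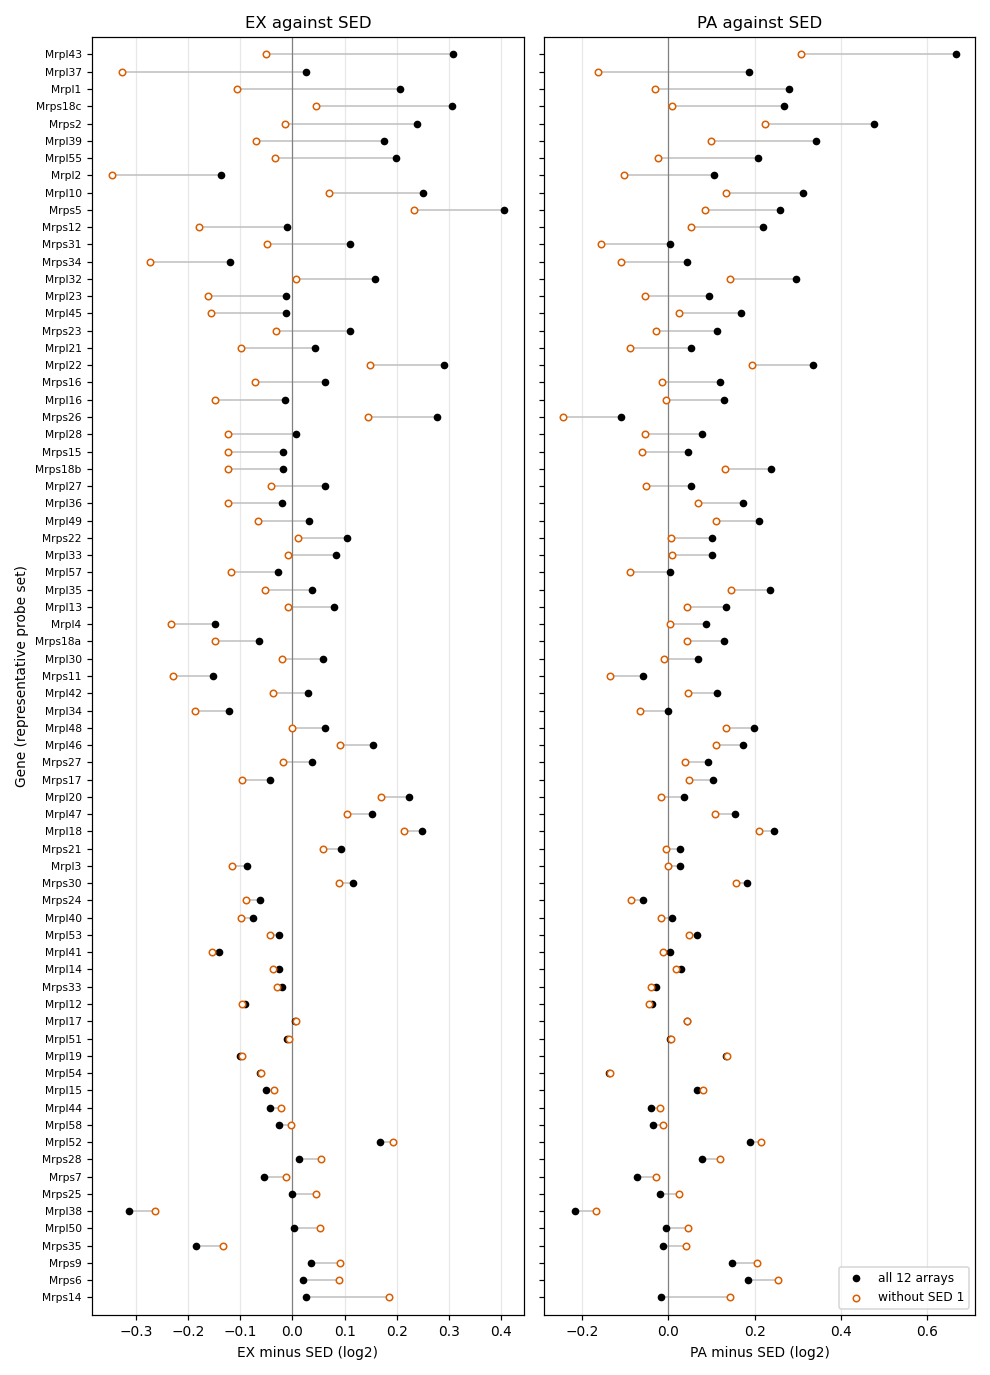
Each row is 1 of the 73 genes, ordered by how far SED 1 lay below the other SED arrays; the horizontal axes give EX minus SED (left) and PA minus SED (right) in log2 units with all 12 arrays (filled) and without SED 1 (open). The open point lies left of the filled one in the 56 genes that were lower in SED 1, and the number with EX above SED is 40 with and 21 without SED 1.

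PA was compared with SED to ask what short sessions of activity add to a standard cage. Here 58 of the 73 genes had a higher mean in PA, 14 a lower one and 1 an equal one, with a median of 0.10, beside 59.7% higher, 39.6% lower and a median of 0.05 over all tested genes. In limma 0 of the 91 member probe sets passed, against 0% of all tested. After quantile normalization 43 members were higher in PA and 30 lower, with 47.5% of all tested genes higher, and with cyclic loess the split was 36 to 37. Of the large subunit genes as deposited 39 were higher and 6 lower, and of the small subunit genes 19 and 8. The genes were also grouped by origin, with the subunit taken from the name, so that Mrps18a counts with the small subunit. Mrpl55, Mrpl57, Mrpl58 and Mrps30 were in none of these groups. The large subunit proteins with a bacterial counterpart accounted for 24 higher and 1 lower of 26. The mitochondria-specific proteins of the large subunit were split 13 to 4 of 17. In the small subunit the split was 13 to 4 of 17 with a bacterial counterpart and 5 to 4 of 9 without one.

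Without SED 1 the split of PA against SED was nearer to even. Then 41 genes were higher in PA and 32 lower, with a median of 0.01, while all tested genes had 59.1% higher, 40.6% lower and a median of 0.03. The large subunit genes were then split 25 to 21 and the small subunit genes 16 to 11, and the large subunit proteins with a bacterial counterpart 14 to 12. Limma called 0 member probe sets, against 0% of all, and 0 member genes had an unadjusted p under 0.05 in either direction, beside 5.79% higher and 4.29% lower of all tested genes. Of the genes that changed side, 21 went from higher to lower in PA and 4 the other way. Without PA 1, the array highest in these genes, 50 were higher and 23 lower, with a median of 0.06, beside 60.2% higher in all tested genes.

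Mrpl22 was the one member at an unadjusted p under 0.05 in PA against SED, where 7.33% of all tested genes were higher and 5.14% lower. It read 9.37, 9.35, 9.39 and 9.0 in PA and 8.52, 9.08, 8.94 and 9.23 in SED. Of the PA arrays, 3 were above all SED arrays and PA 4 lay within their range. The difference was 0.34 ± 0.14 (SE, 95% interval 0.02 to 0.65), with an adjusted limma p of 0.303, and 0.19 ± 0.11 (SE) without SED 1.

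Mrps18b is 1 of 3 related genes of the S18 family and belongs to the small subunit. It read 10 in PA 1 and 9.91, 9.98 and 10.01 in PA 2 to PA 4, 9.55, 9.75, 9.79 and 9.79 in EX, and 9.42, 9.87, 9.83 and 9.83 in SED. All PA arrays were above all others, which for PA against SED held in 1 of the 73 genes, beside 4.02% of all tested genes. In 0 members were all PA arrays below all SED arrays, beside 2.87%. The difference PA minus SED was 0.24 ± 0.11 (SE, adjusted limma p 0.333), and without SED 1 it was 0.13 ± 0.08 (SE, adjusted limma p 0.555), still without overlap. Mrps18b was then again the one member with PA apart above SED, beside 5.77% of all tested genes, and 0 were apart below, beside 3.92%.

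Mrpl43, a mitochondria-specific large subunit protein, had the widest distance between PA and SED means of the 73 genes, with both extremes on single arrays. It read 10.76, 9.81, 10.05 and 9.82 in PA, 9.62, 9.82, 9.78 and 9.79 in EX, and 8.37, 9.89, 9.63 and 9.89 in SED. PA 1 was the highest and SED 1 the lowest, and the other 10 arrays lay between 9.62 and 10.05. The difference PA minus SED was 0.67 ± 0.31 (SE, adjusted limma p 0.337), and 0.31 ± 0.20 (SE) without SED 1.

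Mrps2, whose bacterial counterpart joins the small subunit late in its assembly, stood at 8.90 ± 0.21 in PA and 8.43 ± 0.53 in SED (SD, n = 4 each). The difference was 0.48 ± 0.23 (SE, adjusted limma p 0.348), and 0.22 ± 0.16 (SE) without SED 1. Mrps30, a protein named for the small subunit but found in the large one, averaged 9.64 ± 0.11 in PA against 9.46 ± 0.07 in SED, which differ by 0.18 ± 0.08 (SE), and 0.16 ± 0.08 (SE) without SED 1. For Mrpl18 and Mrpl10 the differences were 0.24 and 0.31, and for Mrpl38 the difference was -0.22. Without SED 1 they were 0.21 for Mrpl18, 0.13 for Mrpl10 and -0.17 for Mrpl38. With all arrays their adjusted limma p-values, Mrps30 included, lay between 0.330 and 0.390.

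The comparison of EX with PA does not use the level of SED 1, which enters it through the shared estimate of the spread alone. Of the 73 genes, 16 had a higher mean in EX and 57 a lower one, with a median difference of -0.06, while 44.1% of all tested genes were higher and 55.1% lower, with a median of -0.02. Limma called 0 of the 91 member probe sets, against 0% of all tested, and every member had an adjusted p of 1.0. The split was 23 to 50 after quantile normalization, with 45.9% of all tested genes higher, 24 to 49 with cyclic loess and 10 to 60 with centred medians, so that more members were lower than higher under each. The large subunit genes were split into 6 higher and 40 lower and the small subunit genes into 10 and 17. Among complex I subunits 2 of 34 were higher and 31 lower in EX, and among cytosolic ribosomal proteins 26 of 42 were higher and 16 lower.

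PA 1 held part of this balance. Without it 25 of the 73 genes were higher in EX and 48 lower, with a median of -0.04, beside 44.2% higher in all tested genes, and complex I had 5 higher and 29 lower. The large subunit was then at 14 higher and 32 lower and the small subunit at 11 and 16. The part of the leukocyte genes, which were also above their mean in PA 1, was not tested. Both EX and PA were compared with the same SED arrays, so their differences from SED are not independent of each other.

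Mrps26, a mitochondria-specific protein of the small subunit, went the other way from most members. It read 9.0, 9.18, 8.95 and 9.06 in EX, 8.67, 8.59, 8.87 and 8.51 in PA, and 8.37, 9.29, 8.73 and 8.69 in SED. Every EX array was above every PA array, while SED 2 was the highest and SED 1 the lowest of all. The difference EX minus PA was 0.39 ± 0.17 (SE, 95% interval 0.03 to 0.75) at an unadjusted limma p of 0.0372. It was the one member that was higher at this level and the one higher without overlap, beside 0.937% and 1.04% of all tested genes.

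Mrps18b was the one member lower at an unadjusted p under 0.05, beside 1.59% of all tested genes, with a difference EX minus PA of -0.26 ± 0.11 (SE, 95% interval -0.50 to -0.01). Members lower without overlap were Mrps18b, Mrps34 and Mrpl2, 3 of 73 beside 1.69% of all tested genes. Mrpl2, named like Mrps34 after its values were seen, read 8.33, 8.33, 8.36 and 8.29 in EX and 8.60, 8.71, 8.58 and 8.39 in PA, and the SED arrays spread around both from 7.84 to 9.03. The differences EX minus PA were -0.24 ± 0.20 (SE) for Mrpl2 and -0.16 ± 0.14 (SE) for Mrps34.

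Other genes among the smallest p-values in EX against PA had overlapping groups. The differences were -0.19 for Mrps18a, -0.19 for Mrpl36, -0.24 for Mrpl4, a protein of the exit tunnel, -0.17 for Mrps35 and -0.14 for Mrpl41. Mrps12, the counterpart of the bacterial decoding-site protein in which streptomycin resistance arises, read 9.74, 9.62, 9.90 and 9.84 in EX, 10.17, 10.03, 9.77 and 10.05 in PA, and 9.28, 9.91, 9.88 and 10.07 in SED. Apart from PA 3, the PA arrays were above the EX arrays, and the difference EX minus PA was -0.23 ± 0.16 (SE).

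**Figure D3:**
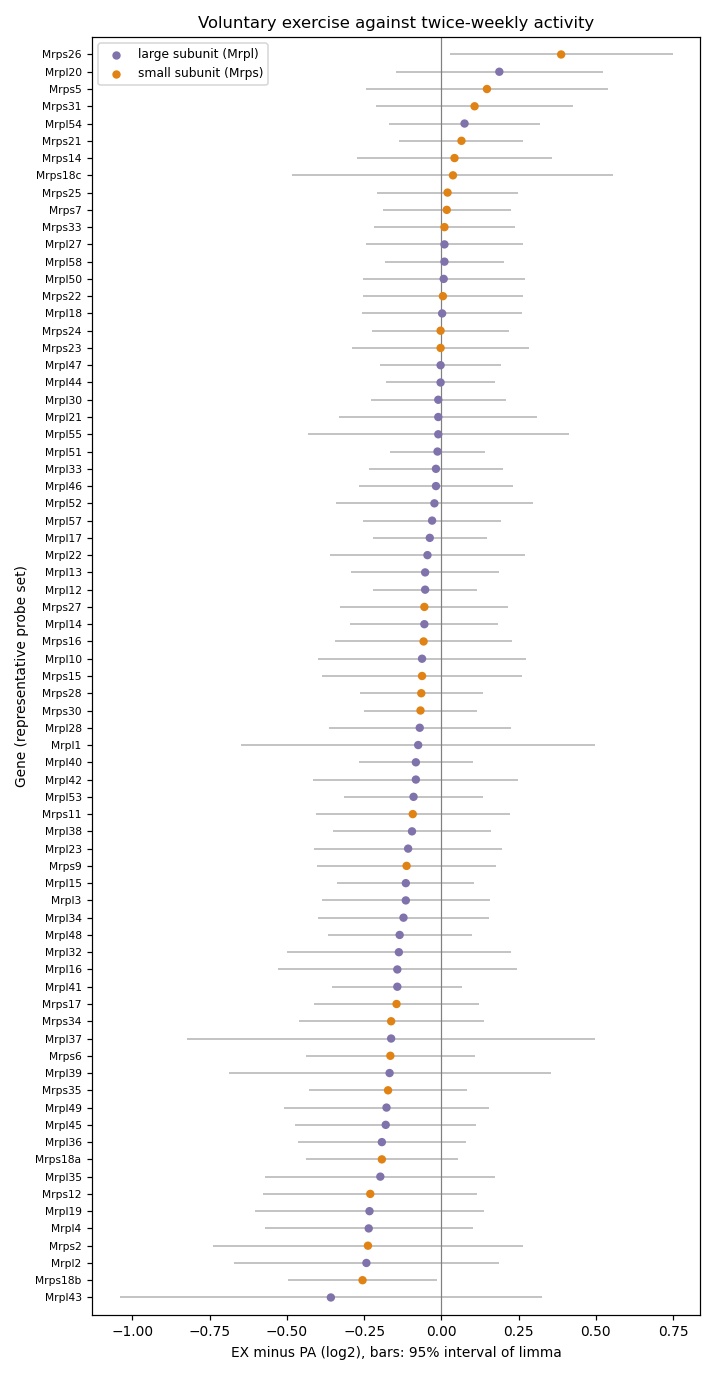
Each row is 1 of the 73 genes, sorted by EX minus PA on the horizontal axis (log2), with bars for the 95% interval of limma and colours for the subunit in the gene's name. Points left of 0 number 57 and points right of it 16, and the intervals of all but Mrps26 and Mrps18b include 0.

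The 3 members of the S18 family take different places in the ribosome. Mrps18c takes the place of the bacterial protein, Mrps18b is a further protein of the small subunit, and Mrps18a, despite its name, lies in the large subunit. Mrps18a read 9.17, 9.49, 9.19 and 9.22 in EX, 9.45, 9.38, 9.63 and 9.38 in PA, and 9.08, 9.43, 9.43 and 9.39 in SED. The arrays EX 1, EX 3 and EX 4 were below all PA arrays, and EX 2 lay within the PA range. Mrps18c stood at 8.30 ± 0.23 in EX, 8.27 ± 0.26 in PA and 8.0 ± 0.54 in SED (SD, n = 4 each), where SED 1 read 7.22 and the other SED arrays 8.06 to 8.43. Its differences from SED were 0.31 in EX and 0.27 in PA, and 0.05 and 0.01 without SED 1. A dimmer tested probe set of Mrps18c read 6.36 in SED 1 and 6.3 to 6.48 in the other SED arrays. On it the differences were 0.11 in EX and 0.015 in PA, and 0.10 and 0.01 without SED 1.

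The genes known from human cardiomyopathy had small differences between the groups, and 0 of the 3 passed. Mrpl3, a protein near the peptidyl transferase centre, differed by -0.09 ± 0.12 (SE) in EX and 0.03 ± 0.12 in PA against SED, and by -0.12 and -0.0008 without SED 1. Mrpl44, a large subunit protein related to ribonuclease III, differed by -0.04 ± 0.08 in each of EX and PA against SED, and by -0.02 in each without SED 1. For Mrps22, a mitochondria-specific small subunit protein, the differences were 0.11 ± 0.12 and 0.10 ± 0.12, and 0.01 in each without SED 1. With all arrays the widest intervals of the 3 genes were those of Mrpl3, from -0.36 to 0.18 in EX and from -0.24 to 0.30 in PA against SED.

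Mrpl12 forms the stalk that receives translation factors, and it also binds the mitochondrial RNA polymerase. Its main probe set read 11.26, 11.23, 11.25 and 11.35 in EX, 11.26, 11.33, 11.33 and 11.38 in PA, and 11.34, 11.47, 11.28 and 11.36 in SED. These values ran together, with a difference EX minus SED of -0.09 ± 0.08 (SE), and -0.10 without SED 1. A dimmer probe set of Mrpl12 gave 0.41 for EX minus SED and 0.34 for PA minus SED, and 0.12 and 0.06 without SED 1, which read 5.54 on it.

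Of the 73 genes, 15 had more than 1 tested probe set, and in 5 of them the probe sets disagreed in sign by more than 0.3. Besides Mrpl12 these were Mrpl37, Mrpl51, Mrps15 and Mrps2. Mrps2 differed by 0.48 in PA against SED on its main probe set and by -0.32 and -0.27 on its 2 dimmer ones, and without SED 1 by 0.22, -0.26 and -0.17. For Mrps15, EX minus SED was -0.02 on the main probe set and 0.58 on the dim one, and -0.12 and 0.49 without SED 1. For Mrpl37, PA minus SED was 0.19 and -0.21 with all arrays, but -0.16 and -0.19 without SED 1, so that the difference in sign rested on that array. Mrpl51 had 4 tested probe sets, and the differences PA minus SED were 0.0025, 0.0075, 0.14 and 0.44 from the brightest to the dimmest. Without SED 1 they were 0.005, 0.0167, 0.07 and 0.07. Their disagreement in sign was in EX minus SED, at -0.01, -0.0325, 0.0425 and 0.28 in the same order. Without SED 1 all were below 0, at -0.0075, -0.0233, -0.0258 and -0.08. Which probe set follows the messenger best was not tested.

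**Figure D4:**
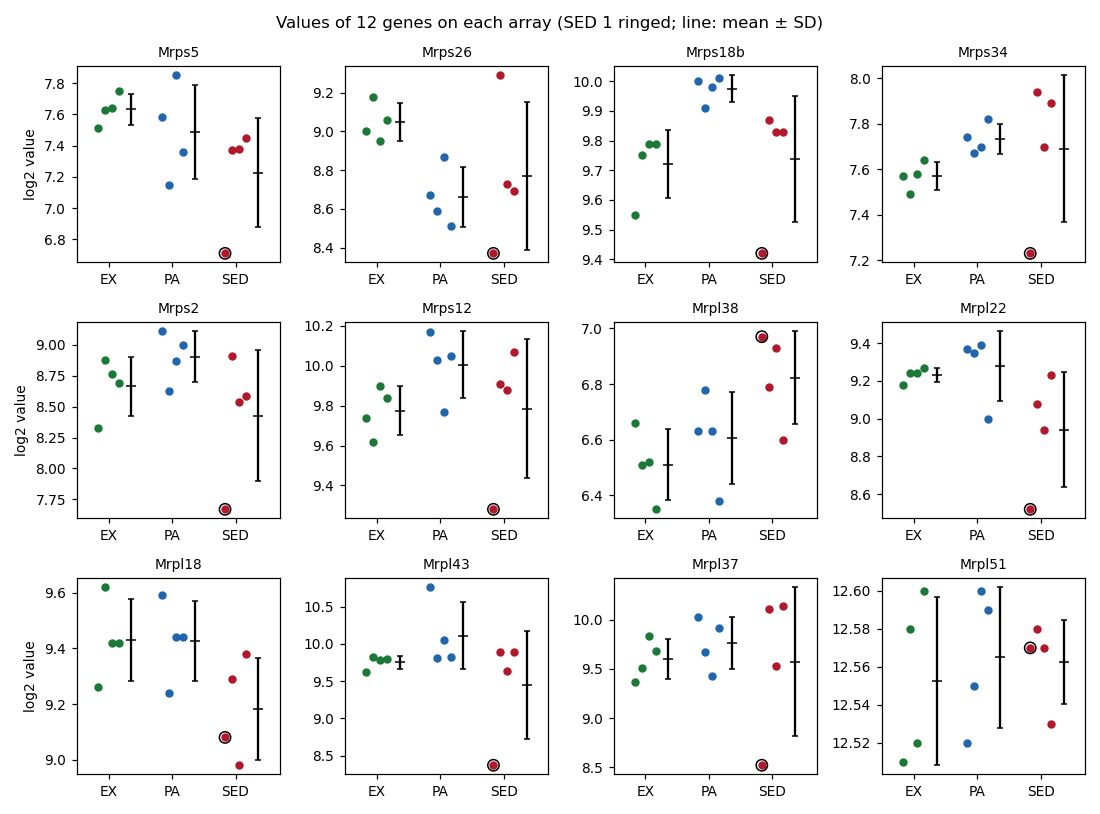
Each panel is 1 gene with its log2 value on every array of EX, PA and SED from left to right and the mean ± SD beside them, SED 1 ringed, and each panel has its own axis. SED 1 is the lowest array in 9 of the 12 panels, and Mrpl38 is the panel in which it is the highest.

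The genes around the ribosome in mitochondrial gene expression were described from fixed lists. Beside these lists, 56.9% of all tested genes were higher in EX than in SED and 59.7% in PA. Without SED 1 these shares were 53.5% and 59.1%. Of 5 subunits with other names, 2 were higher and 3 lower in EX than in SED, and 3 and 2 in PA, while without SED 1 it was 1 and 4 in each. Gadd45gip1, a large subunit protein at the tunnel exit, differed by -0.19 ± 0.09 (SE) in EX and -0.18 ± 0.09 in PA. Dap3, a small subunit protein first known from cell death, gave -0.19 ± 0.12 and -0.23 ± 0.12 (SE). Ptcd3, an RNA-binding protein of the small subunit, gave 0.06 ± 0.11 and 0.21 ± 0.11 (SE). Without SED 1 the differences in EX and PA were -0.17 and -0.15 for Gadd45gip1, -0.14 and -0.18 for Dap3, and 0.015 and 0.16 for Ptcd3.

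Translation factors had higher means in 9 of 13 genes in EX and 11 of 13 in PA, with medians of 0.08 and 0.15 that were 0.03 and 0.06 without SED 1. Gfm1, the elongation factor that moves the ribosome along, gave 0.35 ± 0.17 (SE) in EX and 0.25 ± 0.17 in PA, and Mtrfr, a factor that rescues stalled ribosomes, gave 0.27 ± 0.13 and 0.30 ± 0.13. Without SED 1 these were 0.16 and 0.06 for Gfm1 and 0.15 and 0.19 for Mtrfr. The aminoacyl-tRNA synthetases were higher in 5 of 15 in EX and 9 of 15 in PA, and in 5 and 11 without SED 1. Among them, Iars2 for isoleucine gave 0.40 ± 0.15 and Ears2 for glutamate -0.29 ± 0.11 in EX, and 0.34 and -0.33 without SED 1.

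Assembly and rRNA modification genes were higher in 12 of 23 in EX and 13 of 23 in PA, and in 12 and 16 without SED 1. Mterf3, which acts on mitochondrial transcription and ribosome biogenesis, stood at 8.92 ± 0.10 in EX, 8.96 ± 0.05 in PA and 8.47 ± 0.30 in SED (SD, n = 4 each), with differences of 0.45 ± 0.13 and 0.49 ± 0.13 (SE) and adjusted limma p-values of 0.161 and 0.187, and 0.31 and 0.35 without SED 1. Mterf4, a partner in large subunit assembly, gave 0.46 ± 0.18 in EX and 0.41 ± 0.18 in PA, and 0.27 and 0.23 without SED 1. Rbfa, which helps the small subunit mature, gave -0.19 ± 0.08 in EX, and -0.16 without SED 1.

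Mitochondrial RNA synthesis and processing had the highest medians of these lists against SED with all arrays, 0.12 in EX with 14 of 17 genes higher and 0.18 in PA with 13 of 17. Without SED 1 the medians were 0.05 and 0.075, and in PA the median of the assembly and rRNA modification genes, 0.0817, was then the higher one. Mterf1, a termination factor of mitochondrial transcription, stood at 8.08 ± 0.07 in EX, 8.13 ± 0.11 in PA and 7.67 ± 0.08 in SED (SD, n = 4 each). Its differences were 0.41 ± 0.09 and 0.47 ± 0.09 (SE), with adjusted limma p-values of 0.134 and 0.164, and 0.37 and 0.43 without SED 1. Tfam, which packages and transcribes mitochondrial DNA, gave 0.19 ± 0.09 in EX and 0.25 ± 0.09 in PA, and Tefm, the elongation factor of the mitochondrial polymerase, 0.28 ± 0.18 and 0.46 ± 0.18. Without SED 1 these were 0.20 and 0.26 for Tfam and 0.08 and 0.26 for Tefm. In each of these lists 0 genes passed the test. After quantile normalization 45.5% of all tested genes were higher in EX than in SED and 47.5% in PA. Translation factors were then higher in 7 of 13 genes in EX and 9 in PA, and synthetases in 3 and 5 of 15. Assembly and rRNA modification genes were higher in 6 and 10 of 23, and RNA synthesis and processing genes in 10 and 11 of 17. The subunits with other names were higher in 0 and 1 of 5.

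**Figure D5:**
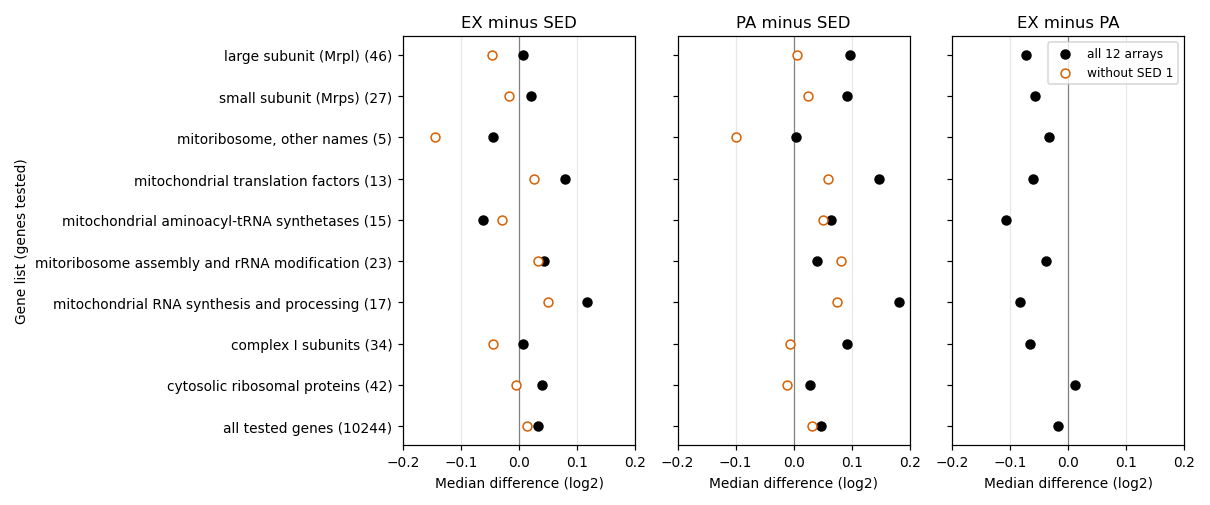
The horizontal axes give the median difference of each gene list (log2) for EX minus SED, PA minus SED and EX minus PA, with all 12 arrays (filled) and, for the comparisons with SED, without SED 1 (open). For the small and large subunit genes the EX minus SED medians lie right of 0 with SED 1 and left of it without.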

How the data were processed

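Per the submitters' processing notes MAS5 and RMA were used. Which of them gave the deposited table is not stated there, so the scale beyond log2 and the background correction are not settled. The authors deposited log2 values for 31099 rows and 12 arrays. No further normalization was applied, because the array medians (5.64 to 5.72) differed by less than a tolerance of 0.2. The 57 control rows were left out. Probe sets in the upper 60% by mean over all arrays (at least 4.94) were tested, 18626 of 31042, with limma 3.58.1 in R 4.3.3: 3 group means over 12 arrays, 9 residual degrees of freedom, two-sided, Benjamini-Hochberg over all tested probe sets, threshold 0.05. For each of 10244 genes the brightest tested probe set stands for the gene. Named are the 8 genes with the smallest p in each comparison, genes whose probe sets disagreed in sign by over 0.3, up to 3 genes of each other list, and Mrpl12, Mrps12, Mrpl3, Mrpl44, Mrps22, Mrps18a, Mrps18b and Mrps18c. Exceptions are marked in the text. The members and lists were chosen with earlier results of these data known. Lists are described by counts and medians without a test. The fit was tested on simulated data. Alternatives were other normalizations, filters, an offset of 32 on the linear scale, variance models, array weights, the compared groups only, averaged probe sets, a threshold of 0.1, the replicate number as a block, and leaving out each array. Arrays carry no read depth, and their number limits the precision. Python 3.11.15 with matplotlib 3.10.9 made the figures.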

Additional observations from a re-analysis of the deposited data

Results flagged for a closer look

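For part of the genes named in the text, 78 groups of 4 arrays were examined for an array far from the others of its group. Dixon's criterion at the 95% level, which sets the gap to the next array against the group's whole range, flagged 9 of them. Chance flags about 1 in 20 such groups, but groups of different genes share the same arrays and are not independent. SED 1 was the low array in 4 of the 9 flagged groups. It read 6.71 for Mrps5 against 7.37 to 7.45 in the other SED arrays, 9.42 for Mrps18b against 9.83 to 9.87, 9.08 for Mrps18a against 9.39 to 9.43, and 9.35 for Mrps22 against 9.73 in each of the others. EX arrays stood apart in 4 groups. EX 1 read 9.55 for Mrps18b against 9.75 to 9.79 and 9.65 for Mrpl3 against 10.07 to 10.15, and EX 2 read 9.49 for Mrps18a against 9.17 to 9.22 and 10.28 for Mrpl41 against 10.50 to 10.52. In PA, the Mrpl22 value of PA 4 was 9.0 against 9.35 to 9.39 in the other PA arrays.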

How the results depend on the processing

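Over 72 alternative fits, limma called 0 member probe sets in each, and the smallest adjusted p was 0.0906, for EX against SED without SED 3. Of 552 values under the alternatives for the 8 genes with the smallest p in each comparison, 551 kept their direction and their side of the threshold. The exception was Mrps2 in PA against SED, at -0.0375 (adjusted limma p 0.883) when each gene's probe sets were averaged. Some of these alternatives cannot move a difference, such as the replicate block or leaving out an array of the group not compared. The genes were also chosen by p in these data, so the share kept does not measure how firm their differences are. Other genes named in the report turned without SED 1, among them Mrpl43 and Mrps2 in EX against SED, to -0.05 and -0.02, and Mrpl37 in PA against SED, to -0.16. The counts of higher and lower genes depended more on the processing. In EX against SED, 26 genes were higher with cyclic loess, and 23 higher and 50 lower with array weights, which give SED 1 a weight of 0.147. In PA against SED, 30 genes were lower after quantile normalization, 31 with array weights and 37 with cyclic loess, where 36 were higher. In EX against PA, 10 were higher after centring the array medians. The cause of these shifts was not tested. Leaving out each array in turn gave 21 to 51 higher and 22 to 52 lower genes in EX against SED (median -0.04 to 0.08), 41 to 62 and 10 to 32 in PA against SED (median 0.0083 to 0.14), and 11 to 25 and 48 to 62 in EX against PA (median -0.08 to -0.04). In EX against SED, the most higher genes came without SED 2 and the fewest without SED 1. In PA against SED, the fewest lower genes came without PA 4 and the most without SED 1. Correlations between the deviations of same-numbered arrays ran from -0.208 to 0.134, and the arrays were treated as unpaired. The replicate number as a block cannot change the differences or the counts of higher and lower genes, since every group holds each number. The fit with this block gave 0 calls.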

Other observations

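Many of the members share a start region with a neighbour on the other strand. Of the 59 genes with a RefSeq promoter, 18 (30.5%) had such a divergent start within 1000 bases, against 11.3% of 27457 genes. In one case both are mitochondrial ribosomal proteins: the starts of Mrpl46 and Mrps11 lie 234 bases apart. Mrpl46 differed by 0.16 in EX and 0.17 in PA against SED, and Mrps11 by -0.15 and -0.06, and neither passed the test. Mrpl47 lies 244 bases from Ndufb5, a complex I subunit, with EX minus SED at 0.15 for Mrpl47 and 0.04 for Ndufb5. Mrpl18 lies 425 bases from Tcp1, a subunit of the cytosolic chaperonin, with 0.25 for Mrpl18 and 0.13 for Tcp1. Mrps18b lies 588 bases from Ppp1r10, a regulator of protein phosphatase, and EX minus PA was -0.26 for Mrps18b and 0.24 for Ppp1r10. The differences are those with all 12 arrays. These pairs were chosen after their values were seen.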
